A study of Arabidopsis thaliana with 14 samples.

Results

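The expression of 10 cell cycle genes of Arabidopsis thaliana was followed through leaf transcriptomes of young and early senescent plants. They are the A-type cyclins CYCA1;1 (AT1G44110) and CYCA2;3 (AT1G15570), the B-type cyclins CYCB1;1 (AT4G37490), CYCB1;2 (AT5G06150), CYCB1;4 (AT2G26760) and CYCB2;1 (AT2G17620), the D-type cyclin CYCD3;1 (AT4G34160), and the B-type cyclin-dependent kinases CDKB1;1 (AT3G54180), CDKB2;1 (AT1G76540) and CDKB2;2 (AT1G20930). The 10 genes were taken by their identifiers from a fixed list. No measured value entered the choice rule, but the genes were chosen with earlier results of these data known. All 10 were present among the 33278 genes of both expression tables.

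The study asked how the histone deacetylase HDA9 and the SANT-domain protein POWERDRESS (PWR) act on leaf aging. RNA was sequenced from leaves of wild-type Columbia-0 (WT) and of T-DNA insertion mutants of HDA9 (hda9) and PWR (pwr), with a single insertion line for each gene, all grown on soil in continuous light. Young leaves (YL, 2 weeks old by the labels and from 10-day-old seedlings by the methods) came from WT with 2 libraries and from hda9 with 1 library. Early senescent leaves (ES) came from WT, hda9 and pwr with 2 libraries each, and no pwr library of YL was analysed here. Levels are given as FPKM, the number of sequenced fragments scaled to transcript length and to the mapped total of the library, so that levels of different genes can be compared. The methods of the study call the RNA-seq replicates biological without saying which plants went into each library, so p-values measure the spread between these libraries.

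Progression through the plant cell cycle depends on kinases (CDKs) that are active only when bound to a cyclin. D-type cyclins such as AT4G34160 respond to hormones and sugars and promote entry into DNA synthesis by way of the retinoblastoma-related protein RBR1. A-type cyclins act from DNA synthesis to early mitosis, and B-type cyclins act at the entry into and passage through mitosis. CDKBs are kinases particular to plants whose transcripts accumulate around G2 and mitosis. A young leaf divides in its blade and in the stomatal lineage, whereas a full-grown leaf has left division and enlarges or ages. Many genes of G2 and mitosis carry the mitosis-specific activator (MSA) element, with the core letters AACGG, which is bound by MYB3R transcription factors.

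The sequences just upstream of 5 of the genes are shown because they differ in this element, which many of the genes described here share. Each is the 250 bases before the annotated gene start in TAIR10.1 (RefSeq), 5′ to 3′ on the strand of the gene, with AACGG or its reverse complement CCGTT in capitals. In these 5 windows the annotation holds no other gene. AT4G37490 is on chromosome 4 (minus strand, chr4:17624309-17624558), AT5G06150 on chromosome 5 (minus strand, chr5:1861704-1861953), AT2G17620 on chromosome 2 (plus strand, chr2:7663805-7664054), AT2G26760 on chromosome 2 (plus strand, chr2:11400868-11401117) and AT1G20930 on chromosome 1 (minus strand, chr1:7294747-7294996).
AT4G37490: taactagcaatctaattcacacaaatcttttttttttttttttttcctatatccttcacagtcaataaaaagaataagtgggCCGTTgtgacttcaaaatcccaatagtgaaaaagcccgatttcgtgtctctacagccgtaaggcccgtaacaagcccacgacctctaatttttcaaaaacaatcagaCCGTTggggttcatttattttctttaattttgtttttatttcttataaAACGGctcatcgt
AT5G06150: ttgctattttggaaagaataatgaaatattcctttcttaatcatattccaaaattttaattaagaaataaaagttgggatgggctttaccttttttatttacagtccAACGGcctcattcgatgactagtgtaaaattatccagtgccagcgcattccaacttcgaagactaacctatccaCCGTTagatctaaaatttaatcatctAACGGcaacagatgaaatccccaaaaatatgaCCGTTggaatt
AT2G17620: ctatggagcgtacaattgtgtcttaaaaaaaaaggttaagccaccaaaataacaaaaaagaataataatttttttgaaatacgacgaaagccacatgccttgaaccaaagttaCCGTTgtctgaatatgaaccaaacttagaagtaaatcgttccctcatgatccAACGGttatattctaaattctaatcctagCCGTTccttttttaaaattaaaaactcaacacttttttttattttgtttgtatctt
AT2G26760: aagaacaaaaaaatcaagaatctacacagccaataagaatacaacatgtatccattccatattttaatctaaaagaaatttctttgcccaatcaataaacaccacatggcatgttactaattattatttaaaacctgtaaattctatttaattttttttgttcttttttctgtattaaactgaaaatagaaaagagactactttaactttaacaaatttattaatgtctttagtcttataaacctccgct
AT1G20930: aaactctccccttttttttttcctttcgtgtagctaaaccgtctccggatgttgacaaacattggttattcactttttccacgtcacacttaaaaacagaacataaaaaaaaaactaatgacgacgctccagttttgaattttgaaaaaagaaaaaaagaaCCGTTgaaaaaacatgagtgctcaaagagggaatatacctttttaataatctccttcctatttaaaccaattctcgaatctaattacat

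Among the B-type cyclins, AT5G06150 held 4 copies of the core and AT4G37490 and AT2G17620 held 3 each. The A-type cyclin AT1G44110 held 2, and the D-type cyclin AT4G34160 and the kinase AT1G20930 held 1 each. None was found in this window of the A-type cyclin AT1G15570, the B-type cyclin AT2G26760 and the kinases AT3G54180 and AT1G76540. At least 1 copy was thus found in 6 of the 10 genes, compared with 20.6% of 27437 windows of the same length upstream of protein-coding genes. At least 3 copies were found in 3 of the 10, compared with 0.736% of those windows. The E2F sites TTTCCCGC and TTTGGCGC, read on both strands like AACGG, were in none of the 10 windows and in 0.959% of all windows. The windows of AT4G34160, AT3G54180 and AT1G76540 hold part of another annotated gene (AT4G34150, AT3G54170 and AT1G76550), so they are not purely intergenic. A match is a description of letters and not a shown binding site.

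In the genome (TAIR10.1), AT1G44110 lies on chromosome 1 from 16774765 to 16777352 on the minus strand and AT1G15570 on chromosome 1 from 5361865 to 5365559 on the plus strand. AT4G37490 lies on chromosome 4 from 17621886 to 17624308 (minus), AT5G06150 on chromosome 5 from 1859279 to 1861703 (minus), AT2G26760 on chromosome 2 from 11401118 to 11403433 (plus) and AT2G17620 on chromosome 2 from 7664055 to 7666522 (plus). AT4G34160 lies on chromosome 4 from 16357421 to 16359565 (plus), AT3G54180 on chromosome 3 from 20059671 to 20061488 (plus), AT1G76540 on chromosome 1 from 28720328 to 28722550 (minus) and AT1G20930 on chromosome 1 from 7292389 to 7294746 (minus). Each value is for a whole gene, and the longest annotated transcripts range from 4 exons in AT5G06150, AT4G34160 and AT3G54180 to 11 exons in AT1G15570.

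Some of these values may hold reads of other genes, because the library kit does not mark the strand. AT3G54180 shares 71 bases at its end with AT3G54190 on the other strand, which was at 42.2 to 62.9 FPKM in ES leaves and at 11.2 to 17.4 FPKM in YL leaves. AT4G34160 shares 40 bases with AT4G34150 on the same strand, which was at 73.1 to 124 FPKM in ES leaves and at 23.5 to 94.2 FPKM in YL leaves. AT1G15570 shares 48 with AT1G15580 (IAA5) and AT1G76540 shares 44 with AT1G76530, in both cases on the other strand. AT1G20930 shares 192 bases with AT1G20925 on the other strand, and AT1G20925 was at or below 0.0945 FPKM in all 9 libraries. AT5G06150 has a close copy in AT1G34460, with a run of 210 bases at 95.2% identity. AT1G34460 stood at 0.383 to 1.36 FPKM in ES leaves and at or below 0.174 FPKM in YL leaves, so the low ES values of AT5G06150 are uncertain. These overlaps and this copy were looked up after values had been seen, and their part in the results was not tested.

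The libraries were checked before the comparisons. HDA9 was at 5.94 and 11.7 FPKM in WT ES, at 1.12 and 3.21 FPKM in hda9 ES, and at 0.918 FPKM in hda9 YL against 3.34 and 4.73 FPKM in WT YL. PWR was at 10.2 and 17.0 FPKM in WT ES, at 7.01 and 6.02 FPKM in pwr ES, and at 28.5 and 51.5 FPKM in hda9 ES. The libraries fell into 2 sets by how low values behave. In WT YL replicate 2, WT ES replicate 2, hda9 ES replicate 2 and both pwr ES libraries, low FPKM of different genes stood in fixed ratios between libraries, as whole reads give, and in the other 4 libraries they did not. The labels name no such batch, and both pwr libraries belong to the set with steps, so for pwr the within-set comparison has 1 WT library. YL and ES values are not on an equal scale. The factors that divide each library in median-ratio rescaling were 0.680 to 0.785 in YL and 1.08 to 1.25 in ES. A transcript of 102 bases, AT2G01021, took 432947 to 2104310 FPKM in YL and 6398 to 54787 FPKM in ES. Its part in the unequal scale was not tested. Across 19691 genes with a mean of at least 1 FPKM in either leaf stage, the median of WT YL minus WT ES was -0.51 on the log2(FPKM + 1) scale.

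All 10 genes were at lower FPKM in each of the 6 ES libraries than in each of the 3 YL libraries. Among the 19691 genes, 14.8% did so. That set holds genes with a mean of at least 1 FPKM in ES or YL. Of the 10 genes 3 reached that mean in ES and 9 in YL, so most entered only through YL, where they are high. AT2G17620 reached it in neither and is not among the 19691. The share is thus not a matched background for the 10 genes. The YL and ES tables were made separately by the authors, so this is a description without a test. It pools the libraries of all genotypes, and no pwr library of YL was analysed. Rescaling widened the difference. After median-ratio rescaling of the 9 libraries the median WT difference of the 10 genes was 2.37 on the log2 scale in place of 1.90. All 10 were still lower in every ES library, as were 5023 of the 19691 genes. The median WT difference of the 19691 genes was 0.01 in place of -0.51. Separated by library set, all 10 genes were again lower in ES, with a median WT difference of 2.04 in the libraries with steps and 1.77 in those without. Fewer dividing cells and less RNA per cell cannot be told apart in whole-leaf RNA.

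**Figure D1:**
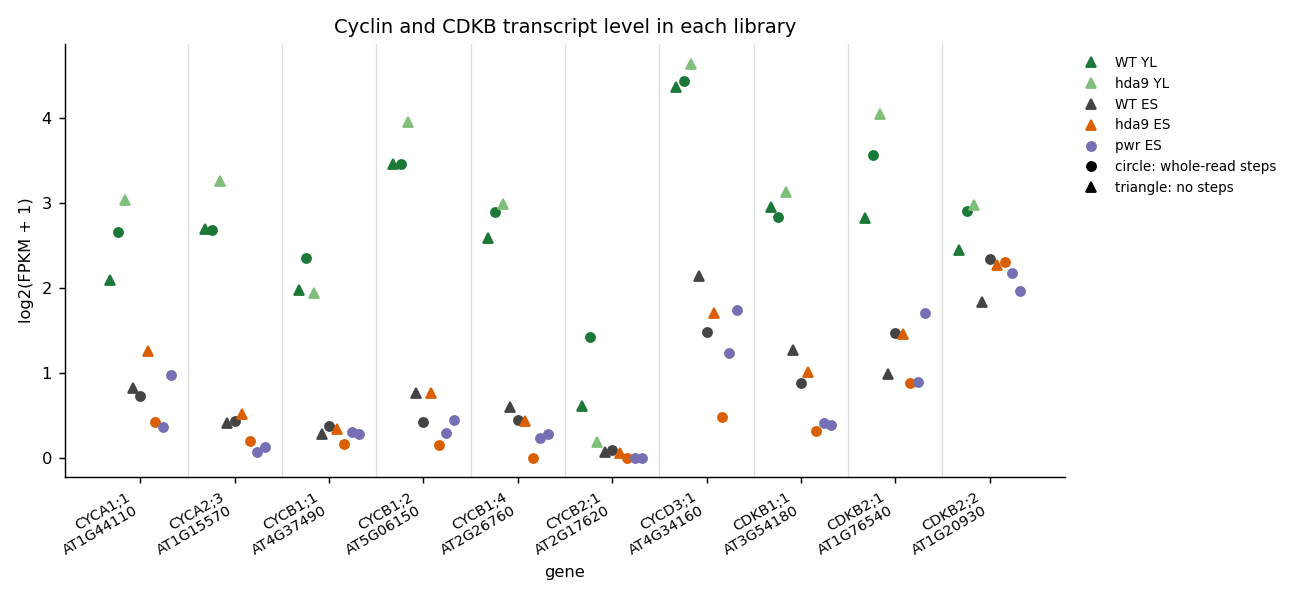
Level of each of the 10 genes in each library, as log2(FPKM + 1) on the vertical axis, with colour for genotype and leaf stage and circles or triangles for the set of libraries. Every ES point lies below every YL point of the same gene, and the gap is small for CDKB2;2 (lowest YL 4.44 FPKM, highest ES 4.04 FPKM) and for CYCB2;1 (0.134 and 0.0591 FPKM).

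Among the mitotic cyclins, CYCB1;2 (AT5G06150) was the most abundant in young leaves. Its level was 9.95 and 9.99 FPKM in WT YL and 14.4 FPKM in hda9 YL. In ES leaves it was 0.692 and 0.338 FPKM in WT, 0.689 and 0.108 FPKM in hda9, and 0.219 and 0.356 FPKM in pwr. The WT means were 9.97 ± 0.0306 (SD, n = 2) in YL and 0.515 ± 0.250 (SD, n = 2) in ES, a ratio of 19.4. CYCB1;1 (AT4G37490), whose product marks cells in G2 and mitosis and whose promoter is used to report dividing cells, was at 2.94 and 4.11 FPKM in WT YL and at 2.82 FPKM in hda9 YL. In ES leaves all 6 libraries lay between 0.114 and 0.297 FPKM, and the WT ratio was 13.9. CYCB1;4 (AT2G26760) was at 4.99 and 6.40 FPKM in WT YL, at 6.93 FPKM in hda9 YL, and at 0.504 and 0.356 FPKM in WT ES, a WT ratio of 13.2 in a gene without the AACGG core in the window shown. CYCB2;1 (AT2G17620) was the least abundant of the 10 at both stages, with 0.519 and 1.67 FPKM in WT YL and 0.134 FPKM in hda9 YL, the lowest of the 3 YL libraries. It was at 0.0432 and 0.0591 FPKM in WT ES and 0.0388 FPKM in hda9 ES replicate 1, and was listed at 0 in hda9 ES replicate 2 and both pwr libraries.

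The A-type cyclins showed ratios of different size. CYCA2;3 (AT1G15570), which restrains the switch to endoreduplication, was at 5.46 and 5.40 FPKM in WT YL, at 8.56 FPKM in hda9 YL, and at 0.328 and 0.346 FPKM in WT ES, a ratio of 16.1. CYCA1;1 (AT1G44110) was at 3.27 and 5.29 FPKM in WT YL, at 7.17 FPKM in hda9 YL, and at 0.761 and 0.648 FPKM in WT ES, a ratio of 6.08. The WT libraries of a stage lay close together for AT1G15570 and spread more widely for AT1G44110 in YL (4.28 ± 1.43, SD, n = 2).

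CYCD3;1 (AT4G34160), the cyclin of the entry into the cycle, was the most abundant of the 10 genes in young leaves, at 19.6 and 20.7 FPKM in WT and 23.9 FPKM in hda9. In WT ES it was at 3.39 and 1.79 FPKM, a ratio of 7.77 between the WT means. Its WT YL range did not overlap with that of AT5G06150, the next in the order.

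The CDKB kinases split. CDKB1;1 (AT3G54180) was at 6.74 and 6.09 FPKM in WT YL and at 1.40 and 0.833 FPKM in WT ES, a ratio of 5.75. CDKB2;1 (AT1G76540) was at 6.05 and 10.8 FPKM in WT YL, at 15.6 FPKM in hda9 YL, and at 0.972 and 1.76 FPKM in WT ES, a ratio of 6.18. CDKB2;2 (AT1G20930), its closest relative in the family, was at 4.44 and 6.46 FPKM in WT YL, at 6.85 FPKM in hda9 YL, and at 2.56 and 4.04 FPKM in WT ES, a ratio of 1.65. All 6 ES libraries held AT1G20930 between 2.56 and 4.04 FPKM. In the order of WT levels AT1G20930 was number 6 of the 10 in YL (5.45 ± 1.43, SD, n = 2) and number 1 in ES (3.30 ± 1.05, SD, n = 2), where its libraries overlapped with those of AT4G34160 (2.59 ± 1.13, SD, n = 2) and lay above those of AT1G76540 (1.37 ± 0.559, SD, n = 2). Its WT difference of 0.59 on the log2(FPKM + 1) scale was the smallest of the 10, and after median-ratio rescaling it was 1.11, next to 1.15 for AT2G17620, whose low level limits the difference on that scale. In the order of WT YL means, each neighbour from AT5G06150 through AT1G76540, AT3G54180, AT2G26760, AT1G20930 and AT1G15570 overlapped with the next in its libraries.

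The reads behind these values could be counted in the libraries with steps, where every FPKM of the 10 genes was a whole multiple of a smallest unit to within 0.01 reads. WT YL replicate 2 held 965 reads over the 10 genes, from 22 for AT2G17620 to 279 for AT4G34160. WT ES replicate 2 held 150 reads, hda9 ES replicate 2 held 85, and the pwr ES libraries held 101 and 157. The 10 genes' units and annotated lengths imply library totals of 8708170 to 11468700 reads in these 4 ES libraries and of 6782530 to 8052330 reads in WT YL replicate 2. The depth of the other 4 libraries could not be derived in this way. The study lists the total reads of each sample in its supplement, and those totals were not used here.

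The B-type cyclin AT4G37490 had 54 reads in WT YL replicate 2 (exact 95% Poisson interval 40.6 to 70.5) and 5 in WT ES replicate 2 (1.62 to 11.7). It had 2 to 4 reads in the mutant ES libraries with steps. AT2G17620 had 22 reads in WT YL replicate 2, 1 in WT ES replicate 2 and 0 in the other 3 ES libraries with steps, a count whose exact 95% Poisson interval reaches 3.69 reads. AT1G20930 had 61 reads in WT YL replicate 2 (46.7 to 78.4) and 39 to 50 in the 4 ES libraries, of greater depth. In these 4 ES libraries between 6 and 8 of the 10 genes had 10 reads or fewer, so their counting intervals are wide. Intervals and limits cover counting error only.

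**Figure D2:**
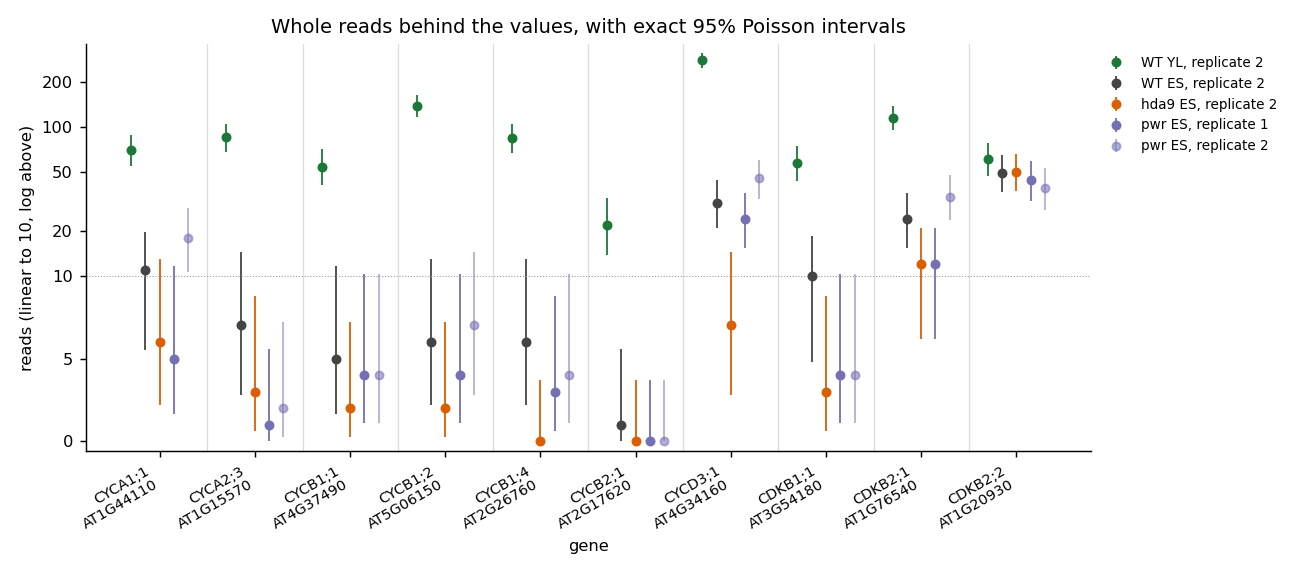
Reads of each gene in the 5 libraries where whole reads could be recovered, with exact 95% Poisson intervals as bars. The vertical axis is linear to 10 and logarithmic above. CYCD3;1 has 279 reads in WT YL replicate 2 and 7 in hda9 ES replicate 2, whereas CDKB2;2 has between 39 and 61 reads in each of the 5 libraries.

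The remaining cell cycle genes were read from lists of 77 genes. Of these, 36 were lower in every ES library than in every YL library (46.8%), 12 were higher in every ES library, and 29 overlapped. After median-ratio rescaling the counts were 46 lower and 6 higher, so the genes higher in ES depend on the scale. Among the 19691 genes, 14.8% were lower and 39.8% higher in every ES library. After rescaling 5023 of them were lower and 4555 higher. The 77 genes were taken without the filter on level that the 19691 passed. The median WT YL minus WT ES difference was 0.69 over the 77 genes, compared with 1.90 for the 10 cyclins and CDKBs.

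The lists of mitosis lay nearest to the 10 genes. All 5 other B-type cyclins of the list were lower in every ES library. Among them were AT1G76310 (3.23 FPKM mean in WT YL, 0.250 in WT ES) and AT3G11520 (3.88 and 0.560). AT1G34460, the close copy of AT5G06150, was not in the list and went the other way. It was at 0.383 to 1.36 FPKM in ES and at or below 0.174 FPKM in YL. Of 11 genes of mitosis and cytokinesis 9 were lower, including the cytokinesis syntaxin KNOLLE (31.9 and 2.48 FPKM) and the anaphase activator CDC20.1 (11.5 and 0.635 FPKM). CDKB1;2 (AT2G38620), the close relative of AT3G54180, had WT means of 6.97 FPKM in YL and 0.118 FPKM in ES, a ratio of 59.0 beside 5.75 for AT3G54180. The CDK-binding subunit CKS2 had WT means of 60.0 and 17.7 FPKM.

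Other groups were mixed. Of 13 genes of DNA replication 7 were lower in every ES library, with WT means of 14.7 and 1.62 FPKM for the sliding clamp gene PCNA1 and of 131 and 27.5 FPKM for TSO2, a subunit of ribonucleotide reductase. Of 8 other A-type cyclins 2 were lower, AT1G80370 (1.88 and 0.128 FPKM) and AT1G47210 (6.17 and 3.43 FPKM). Of 9 other D-type cyclins 4 were lower, among them the relatives of AT4G34160, CYCD3;3 (AT3G50070) (12.0 and 2.32 FPKM) and CYCD3;2 (AT5G67260) (51.3 and 22.1 FPKM).

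The lists of regulators were mixed too. Of 9 genes of the E2F, DP and RBR list 1 was lower and 4 were higher in every ES library (4 lower and 3 higher after median-ratio rescaling). The share higher, 44.4%, lies near the 39.8% of all 19691 genes that were higher in every ES library. After rescaling 4555 of the 19691 genes were higher. Of 4 MYB3R factors 1 was lower and 3 were higher (1 and 1 after rescaling). RBR1, the retinoblastoma-related repressor, had WT means of 3.34 FPKM in YL and 10.8 FPKM in ES, and the atypical E2F gene DEL2 had 0.175 and 3.73 FPKM. CCS52A2, an activator of the anaphase-promoting complex, had 1.56 and 4.01 FPKM, whereas its relative CCS52B had 5.20 and 2.27 FPKM. Of the MYB3R factors, the repressor MYB3R3 had WT means of 2.72 and 6.32 FPKM and the activator MYB3R4 was at 1.21 and 1.39 FPKM in WT YL and at 0.237 and 0.260 FPKM in WT ES. Of 11 CDK inhibitors, counted with the inhibitory kinase WEE1, 4 were lower in every ES library, 1 was higher and 6 overlapped, with a median WT difference of 1.02. Among them KRP3 had WT means of 4.03 and 0.320 FPKM. SMR5, a CDK inhibitor induced by reactive oxygen, was listed at 0 in both WT YL libraries and was at 7.49 and 17.9 FPKM in WT ES, but overlapped between the stages with 12.1 FPKM in hda9 YL. The directions of RBR1, DEL2, CCS52A2 and MYB3R3 were the same after median-ratio rescaling, with WT YL minus WT ES at -0.95, -1.80, -0.62 and -0.41 on the log2 scale.

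**Figure D3:**
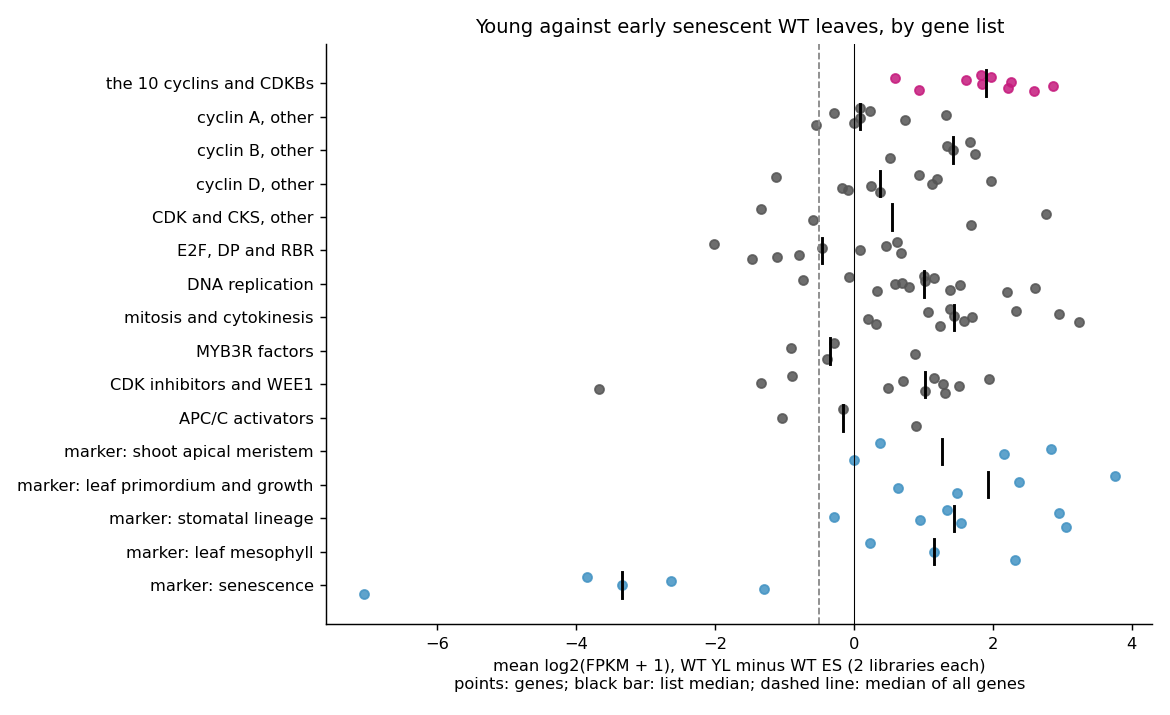
Difference between WT YL and WT ES for each gene, grouped by list, as the difference of means of log2(FPKM + 1) over 2 libraries each. The 10 cyclins and CDKBs have a median of 1.90, against a median of -0.51 for all genes (dashed line), and the markers of senescence have a median of -3.34.

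Markers of other cell types moved with leaf stage as well. Of 4 shoot apical meristem markers, STM and KNAT1 were lower in every ES library than in every YL library, CLV3 overlapped and WUS was listed at 0 in all 9 libraries. The list summed to 10.4 to 12.1 FPKM in YL and 0.144 to 0.986 FPKM in ES. Of 4 markers of leaf primordia and growth 3 were lower in every ES library, and their sum was 35.3 to 59.8 FPKM in YL and 5.25 to 7.95 FPKM in ES. Of 6 stomatal lineage markers 4 were lower, with sums of 22.6 to 39.5 FPKM in YL and 5.01 to 11.5 FPKM in ES, and FAMA, which acts late in that lineage, was not among them. Of 5 flower markers 2 were lower in every ES library, 1 was higher and 2 overlapped, with PI at 2.66 to 5.34 FPKM in YL and at or below 0.585 FPKM in ES, and AG listed at 0 in YL and at 0.300 to 0.940 FPKM in ES. The defining mesophyll genes LHCB1.3, RBCS1A and CAB3 were abundant in all 9 libraries, at a sum of 2535 to 59129 FPKM. How far the share of apex, primordium and stomatal lineage cells sets the levels of the cyclins and CDKBs was not tested.

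**Figure D4:**
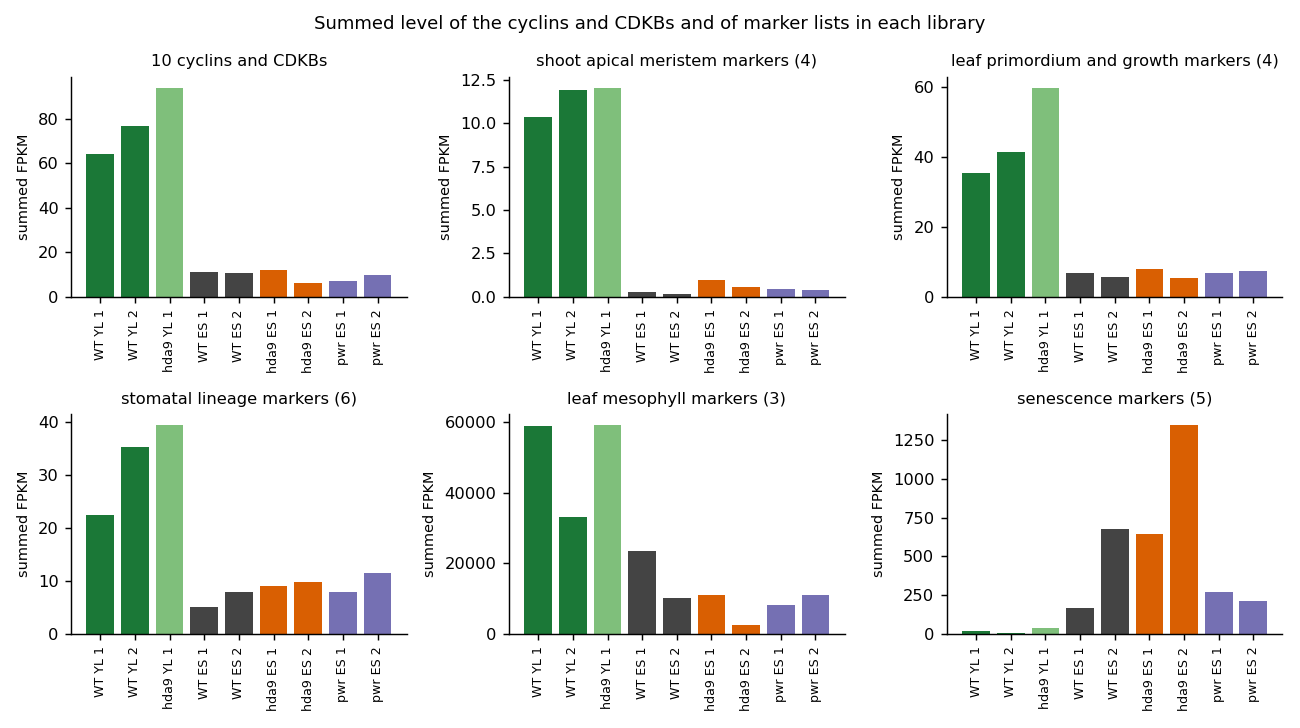
Summed FPKM in each library of the 10 cyclins and CDKBs and of 5 marker lists, with bars coloured by genotype and leaf stage. The cyclin and CDKB sum is 63.9 to 94.0 FPKM in YL and 6.12 to 11.9 FPKM in ES, with hda9 ES replicate 2 lowest in both the cyclin and CDKB and mesophyll panels and highest in the senescence panel.

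In early senescent leaves the 10 genes were then compared between genotypes. The test was limma on log2(FPKM + 1) with all 6 ES libraries in 1 fit and genes with a mean of at least 1 FPKM, and calls were made at p under 0.05 before adjustment, the threshold the study used. Of the 10 genes 3 passed the filter, AT4G34160, AT1G76540 and AT1G20930, and 7 did not. Among all 18140 genes tested, 4.93% were called between hda9 and WT, 6.47% between pwr and WT and 4.77% between hda9 and pwr. None of the 3 genes was called in any of the 3 comparisons, where the smallest unadjusted p was 0.215 (limma) and the smallest Benjamini-Hochberg adjusted p was 0.884.

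The D-type cyclin AT4G34160 had the widest range of the 3. Beside 3.39 and 1.79 FPKM in WT, it was at 2.26 and 0.387 FPKM in hda9 and at 1.34 and 2.34 FPKM in pwr. The groups overlapped. The log2 fold change of FPKM + 1 was -0.72 ± 0.52 (SE) for hda9 against WT (limma, unadjusted p = 0.215, adjusted p = 0.920) and -0.32 ± 0.52 for pwr against WT (adjusted p = 0.884). Without hda9 replicate 1 the hda9 difference was -1.34 and passed the threshold (limma, unadjusted p = 0.0402), resting on hda9 replicate 2 alone. Within library sets it was -0.43 in hda9 replicate 1 against WT replicate 1 and -1.01 in hda9 replicate 2 against WT replicate 2. For pwr it was -0.25 and 0.26 in replicates 1 and 2 against WT replicate 2, the WT library of their set, and the fit with the library set as a block turned the pwr difference to 0.15.

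Of the CDKB2 kinases, AT1G76540 was at 0.972 and 1.76 FPKM in WT, 1.73 and 0.844 FPKM in hda9, and 0.855 and 2.25 FPKM in pwr, with a high and a low library in each genotype. AT1G20930 was at 2.56 and 4.04 FPKM in WT, 3.79 and 3.95 FPKM in hda9, and 3.52 and 2.90 FPKM in pwr, and every mutant library lay between the WT libraries. Its fold changes on the log2 scale were 0.20 ± 0.30 (SE) for hda9 and -0.01 ± 0.30 for pwr.

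The 7 genes under the filter were fitted without it. Among 26529 genes, 2.82% were called lower in pwr than in WT and 2.83% lower in hda9 than in WT. Of the 10 genes 1 was called lower in pwr and 0 in hda9. The A-type cyclin AT1G15570 was the gene called in pwr, at 0.0480 and 0.0892 FPKM against 0.328 and 0.346 FPKM in WT, without overlap (log2 fold change -0.32 ± 0.12 SE, limma, unadjusted p = 0.0416, adjusted p = 0.733). It rested on 1 and 2 reads in the pwr libraries and 7 reads in WT replicate 2, with overlapping Poisson intervals. The kinase AT3G54180 was at 0.323 and 0.300 FPKM in pwr and 1.40 and 0.833 FPKM in WT, also without overlap, and was not called (-0.68 ± 0.27, unadjusted p = 0.0559). In hda9 AT3G54180 was at 1.01 and 0.239 FPKM, which overlapped with WT.

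Of the other low genes, the B-type cyclin AT2G26760 was at 0.504 and 0.356 FPKM in WT, 0.343 FPKM and 0 in hda9, and 0.173 and 0.214 FPKM in pwr, with both mutants below WT and neither called (limma, -0.30 ± 0.16 SE for hda9 with unadjusted p = 0.111, and -0.26 ± 0.16 for pwr with unadjusted p = 0.157). The A-type cyclin AT1G44110 was at 0.761 and 0.648 FPKM in WT, 1.38 and 0.338 FPKM in hda9, and 0.286 and 0.955 FPKM in pwr, and these groups overlapped. The B-type cyclins AT4G37490, AT5G06150 and AT2G17620 had log2 fold changes from -0.23 to -0.04 in the mutants. In the fit without the filter the median over the 10 genes was -0.07 for hda9 and -0.17 for pwr, beside 0.00 and 0.02 over the 26529 genes.

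The direction differed between library pairs. In hda9 ES replicate 1 against WT ES replicate 1, both without steps, 5 of the 10 genes were lower and 5 higher, with a median difference of 0.03. In hda9 ES replicate 2 against WT ES replicate 2 all 10 were lower, with a median of -0.29, while 49.9% of 18140 genes were lower. These 18140 genes had a mean of at least 1 FPKM in ES, a filter that 7 of the 10 did not pass, so the levels compared differ. In pwr ES replicate 1 all 10 were lower than in WT ES replicate 2 (48.0% of the 18140 genes), and in pwr ES replicate 2 6 of the 10 were (50.3%). Library hda9 ES replicate 2 held the lowest ES value for 7 of the 10 genes, AT4G37490, AT5G06150, AT2G26760, AT2G17620 (at 0 there and in both pwr libraries), AT4G34160, AT3G54180 and AT1G76540. The same library had the highest summed level of the senescence markers SAG12, SAG13, SAG113, ORE1 and NAP, 1347 FPKM, against 165 to 679 FPKM in the other ES libraries. Its mesophyll markers summed to 2535 FPKM, against 8188 to 23419 FPKM in the other ES libraries. Over both hda9 libraries, 2 of the 3 mesophyll markers were called lower than in WT (limma, unadjusted p under 0.05), with a median log2 fold change of -2.07. Among all genes 4.93% were called in that comparison. All 5 senescence markers had a fold change above 0 in hda9 (median 1.41), and none was called. The part of these differences in the low cyclin and CDKB values was not tested.

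**Figure D5:**
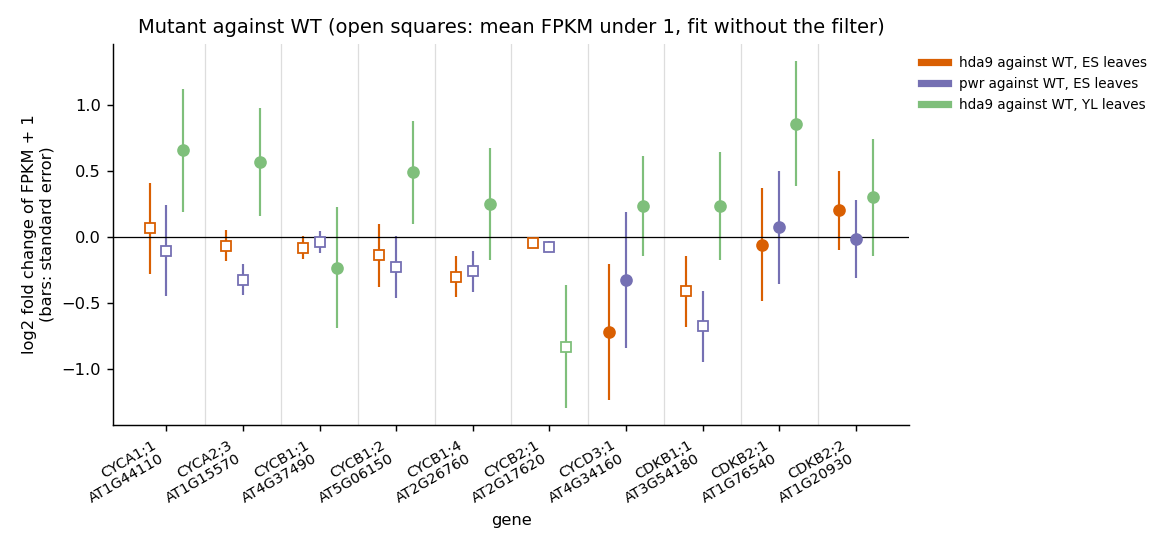
Log2 fold change of FPKM + 1 between mutant and WT for each gene, with standard errors from limma as bars. Open squares are genes under a mean of 1 FPKM, taken from the fit without that filter. In ES leaves the hda9 and pwr values lie between -0.72 and 0.20, and in YL leaves the hda9 values lie above 0 except for CYCB1;1 and CYCB2;1.

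In young leaves hda9 was compared with WT over 3 libraries, with 1 residual degree of freedom per gene and the lone hda9 library assumed to vary like WT. Of 17780 genes tested 8.72% were called. Of the 10 genes 9 passed the filter, all but AT2G17620, and none was called (limma, smallest unadjusted p = 0.118). Of the 9 genes 8 were higher in hda9 than the WT mean, as were 46.6% of all genes tested. The median log2 fold change of the 9 was 0.30 beside -0.06 over all genes tested. The kinase AT1G76540 was at 15.6 FPKM in hda9 against 6.05 and 10.8 FPKM in WT (0.86 ± 0.47 SE, adjusted p = 0.626). Of the A-type cyclins, AT1G44110 was at 7.17 FPKM against 3.27 and 5.29 FPKM (0.66 ± 0.46, adjusted p = 0.684), and AT1G15570 was at 8.56 FPKM against 5.46 and 5.40 FPKM (0.57 ± 0.41, adjusted p = 0.685). The B-type cyclin AT4G37490 was the exception among the 9, at 2.82 FPKM against 2.94 and 4.11 FPKM. Against WT YL replicate 1 alone, which is in the same library set, 8 of the 10 genes were higher in hda9 and 2 lower. Of the 17780 genes 50.5% were lower in that pair. Both counts rest on the same single hda9 library.

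The marker lists of dividing tissue differed in that library as well, and not in 1 direction. The leaf primordium and growth markers summed to 59.8 FPKM in hda9 YL and to 35.3 and 41.3 FPKM in WT YL, and all 4 had a log2 fold change above 0 (median 0.66). The stomatal lineage markers summed to 39.5 FPKM against 22.6 and 35.4 FPKM. TMM, a receptor of that lineage, held the largest part of this sum in hda9 and was above its WT levels of 11.6 and 10.4 FPKM, whereas the lineage regulators SPCH (0.623 FPKM against 2.31 and 1.56), MUTE (0 against 0.460 and 1.55) and FAMA (0.739 against 2.67 and 7.15) were below both WT libraries. Of the 5 stomatal markers tested 2 had a fold change above 0, with a median of -0.17. The meristem markers summed to 12.1 FPKM against 10.4 and 11.9 FPKM, with STM at 6.78 FPKM against 4.90 and 3.23 FPKM and KNAT1 at 3.78 FPKM, below both WT libraries. Their part in the levels of the 10 genes was not tested.

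Of the 77 other cell cycle genes 44 were tested in ES leaves. KRP6 was called higher and CKS2 lower in hda9, CKS2 was called lower in pwr, and none was called between hda9 and pwr. With 4.93%, 6.47% and 4.77% of all genes called in these comparisons, so few calls do not set the list apart. CKS2 was at 20.5 and 14.9 FPKM in WT, 10.6 and 9.29 FPKM in hda9 and 7.23 and 9.56 FPKM in pwr, both mutants below WT (limma, log2 fold changes -0.76 ± 0.28 SE, adjusted p = 0.908, and -0.99 ± 0.28, adjusted p = 0.729). KRP6, a CDK inhibitor, was at 27.7 and 39.4 FPKM in hda9, both above both WT libraries, a log2 fold change of 1.12 ± 0.38 in hda9 (limma, adjusted p = 0.908). Of 66 tested in YL leaves 4 passed the threshold, beside 8.72% of all genes, in a comparison whose hda9 arm is 1 library. SMR5 was listed at 0 in both WT libraries and was at 12.1 FPKM in hda9, and it passed the filter only through that library. CDC20.1 was at 25.9 FPKM in hda9 against 11.9 and 11.1 FPKM in WT. KRP1, a CDK inhibitor, was at 1.79 FPKM in hda9 against 7.46 and 16.8 FPKM in WT, and the D-type cyclin AT2G22490 was at 1.63 FPKM against 4.97 and 5.19 FPKM (log2 fold changes of -2.14 ± 0.55 and -1.21 ± 0.44, SE).

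The genes whose pattern was most like the mean log2(FPKM + 1) of the 10 over the 9 libraries were AT4G33130, AT3G20260, AT5G37010, RKL1 (AT1G48480, a receptor-like kinase) and AT1G61450, with Pearson r from 0.994 to 0.998 among 17949 protein-coding genes. The 9 libraries form separate YL and ES clusters, and 1179 of those genes had r above 0.9, so this likeness mostly states the difference between leaf stages. Over the 6 ES libraries the nearest were AT1G60060, CLC-B (AT3G27170, a member of the CLC family), ARA12 (AT5G67360, a subtilisin-type protease), AT5G13400 and SVL1 (AT5G55480). Their r ranged from 0.981 to 0.994 among 17378 genes. AT5G67360 was at 113 and 104 FPKM in WT, 111 and 78.5 FPKM in hda9 and 84.6 and 95.5 FPKM in pwr. These values share libraries and scale with the 10 genes and were not tested.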

How the data were processed

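RNA was extracted from leaves with Trizol, and libraries were made with an Illumina TruSeq kit that does not mark strand. The authors aligned reads to TAIR10 with TopHat and Bowtie2 and describe collapsing reads of identical position. They used Cufflinks in testing for differential expression. FPKM values were deposited in separate tables for ES and YL, and the methods of the study do not say which program computed them. Values were transformed as log2(FPKM + 1). Genes with a mean of at least 1 FPKM in the ES or the YL libraries were tested with limma 3.58.1 (lmFit, eBayes with trend) in R 4.3.3, with genotype as the only term, and called at an unadjusted p under 0.05; Benjamini-Hochberg adjustment ran over all genes of a table. The script was tested on simulated data. ES and YL were set side by side without a test. Alternatives were another pseudocount, other filters, 2 rescalings, replicate and library set blocks and leaving out each library. The 10 genes, the other cell cycle and marker lists and the tests were chosen with earlier results of these data known. The genes named are the 10, other listed cell cycle genes that were called or had the 2 largest WT stage differences of their list, HDA9 and PWR, and the 5 genes most like the 10 over 9 and over 6 libraries. Left out were 2 listed genes whose reference name did not match. Sequences and coordinates are RefSeq TAIR10.1, and close copies were searched with blastn 2.17.0. ChIP samples of the series were not used here.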

Additional observations from a re-analysis of the deposited data

Results flagged for a closer look

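CYCB1;4 was flagged because hda9 differed from WT in opposite directions at the 2 leaf stages in every library. The share of all genes with this pattern is not given here, so it does not set CYCB1;4 apart. In YL leaves the hda9 library was above both WT libraries, by at least 0.535 FPKM (6.93 against 4.99 and 6.40 FPKM). In ES leaves both hda9 libraries were below both WT libraries, with a difference of -0.0128 FPKM between the closest of them (0.343 and 0 against 0.504 and 0.356 FPKM). These closest libraries, hda9 ES replicate 1 and WT ES replicate 2, belong to different library sets. In WT ES replicate 2, 1 read of CYCB1;4 was 0.0593 FPKM, more than that difference. The difference between stages was not tested, since the tables were made separately, and WT ES replicate 2 held 6 reads of CYCB1;4 where hda9 ES replicate 2 held 0.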

How the results depend on the processing

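The number of the 10 genes called stayed at 0 in each genotype comparison under each alternative run, except for CYCA2;3 in pwr without the filter (1 gene) and CYCD3;1 in hda9 without hda9 replicate 1 (0 to 1 over the libraries left out). With a mean of at least 5 FPKM none of the 10 could be tested in ES. All 10 remained lower in ES than in YL under each alternative, and their median WT difference was 1.90, 2.89 with a pseudocount of 0.1, 2.37 with equal 75th percentiles and 2.37 with median ratios (1.77 to 2.14 with a WT library left out). Of the 3 genes tested in ES, none past the threshold, some log2 fold changes turned sign. With a library left out, hda9 against WT ranged from -0.34 to 0.23 for CDKB2;1 and from -0.0497 to 0.45 for CDKB2;2, pwr against WT from -0.65 to 0.00484 for CYCD3;1, from -0.33 to 0.48 for CDKB2;1 and from -0.26 to 0.24 for CDKB2;2, and hda9 against pwr from -1.01 to 0.22 for CYCD3;1 and from -0.53 to 0.27 for CDKB2;1. With the library set block, pwr against WT was 0.15 for CYCD3;1 (-0.32 without it). The 2 comparisons within library sets were chosen after seeing the data.

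Over all genes, the main counts were 404 higher and 491 lower in hda9, 662 and 511 in pwr, 365 and 500 in hda9 against pwr, and 672 and 878 in hda9 YL. No filter gave 750 lower in hda9, 1043 higher in pwr and 962 lower in hda9 against pwr, and a mean of at least 5 FPKM gave 557 lower in hda9 YL. Adjusted p under 0.05 gave 1 higher and 4 lower in hda9, 3 and 3 in pwr, 0 and 0 in hda9 against pwr, and 12 and 7 in hda9 YL. With the replicate block the counts were 812 and 748, 1332 and 829, and 625 and 870 in the 3 ES comparisons; the labels do not say that a replicate number marks a shared batch, and deviations of same-numbered libraries correlated at 0.550 (WT and hda9), 0.0991 (WT and pwr) and -0.0113 (hda9 and pwr). With the library set block they were 1735 and 1340, 1032 and 1202, and 1797 and 1643. With a library left out, counts ranged from 136 to 826 higher and 219 to 1020 lower in hda9, 183 to 929 and 176 to 587 in pwr, and 200 to 478 and 276 to 745 in hda9 against pwr. The causes were not tested. In the 4 ES libraries whose reads could be counted, 6 to 8 of the 10 genes had 10 reads or fewer, which limits the precision of their values, while CDKB2;2 had 39 to 50.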
